A study of Mus musculus with 30 samples.

Results

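The sterol and fatty acid synthesis genes are a set of 31 mouse genes that make cholesterol and long-chain fatty acids or control that synthesis. A gene was read on every probe set of the A and B arrays that the platform annotation assigns to its symbol alone, and was represented by the probe set with the highest mean over its 15 arrays. By this rule 30 of the 31 genes had a probe set, of 18194 genes in all with a probe set of 1 symbol, and Acat2 was not analysed here. The 30 genes are 17 enzymes of the sterol branch, 9 enzymes of the fatty acid branch and 4 regulators or carriers. They had 69 probe sets, 57 of type A and 12 of type B. Of these 60 passed the filter on dim probe sets, the 30 representative ones among them. The representative was on the A arrays for 25 genes and on the B arrays for Hsd17b7, Acaca, Fads1, Insig1 and Stard4.

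Affymetrix arrays were hybridised with total RNA of mouse extraocular muscle, which turns the eyeball, from a cell culture series labelled 0, 4, 12, 24 and 48 h, with 3 arrays of each type at each time. The labels name no strain, age, genotype or treatment, and they leave out what started the clock and whether the 3 arrays of a time are separate cultures. Nor do they say if an A array and the B array of its number share RNA. P-values therefore measure only array-to-array spread, possibly technical. The B array titled as the 0 h extraocular replicate 1 carries a source name of leg muscle and was kept under its title. Without it, Insig1, the member called on the B arrays, was still past the threshold. All 10 skeletal muscle markers were above the filter, while 1 of 7 adipocyte markers on the A arrays was (Retn), with Adipoq, Fabp4, Lep, Cidec, Lipe and Pparg below it. The summed adipocyte marker intensity was 155.2 to 302.8 at 0 h, 271.5 to 328.9 at 4 h, 292.4 to 402.0 at 12 h, 199.5 to 382.8 at 24 h and 201.8 to 336.7 at 48 h. Intensities had been scaled per array and for each type apart, so levels of an A probe set are not set against those of a B probe set, and each change is relative to the array. In such bulk RNA, fewer cells of a type and less RNA per cell cannot be told apart.

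Cells build cholesterol from acetyl-CoA through mevalonate, farnesyl diphosphate, squalene and lanosterol, and build fatty acids from the same precursor through malonyl-CoA, followed by elongation and desaturation. Both sets of genes are classical targets of the SREBP transcription factors, which are released from the endoplasmic reticulum when membrane sterol is low and are held there by INSIG proteins. SREBP-2 acts mainly on sterol genes and SREBP-1c mainly on fatty acid genes, and at their promoters these factors work together with NF-Y, which binds CCAAT boxes, and Sp1, which binds GC boxes. In muscle the products are membrane lipid, including that of the growing myotube and its internal membranes.

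The start windows of the genes are shown first. Since NF-Y and Sp1 are known partners at such promoters, matches describe the genes listed and give no support to the array results. RefSeq windows on GRCm38.p6, from 250 bases before to 50 bases after each annotated gene start, were found for 23 of the 30 genes and gave 28 windows. Sqle, Fdps, Fdft1, Scd1, Scd2, Fads1 and Stard4 had none. The windows of Dhcr7, Ebp, Lss, Insig1, Cyp51 and Sc5d, the members with the largest statistic over time that have a window, are printed 5′ to 3′ on the gene's strand. Capitals mark the motifs searched on both strands, which were the NF-Y box CCAAT, the Sp1 box GGGCGG, the E-box CACGTG and the core of the sterol response element, TCACNCCAC. On the opposite strand an NF-Y box reads ATTGG and an Sp1 box reads CCGCCC. Of the 3 annotated starts of Dhcr7, the third is shown, being the one with CCAAT boxes. Hmgcs1 was added after its match was seen, since it alone among the members held the sterol response element core.
Dhcr7: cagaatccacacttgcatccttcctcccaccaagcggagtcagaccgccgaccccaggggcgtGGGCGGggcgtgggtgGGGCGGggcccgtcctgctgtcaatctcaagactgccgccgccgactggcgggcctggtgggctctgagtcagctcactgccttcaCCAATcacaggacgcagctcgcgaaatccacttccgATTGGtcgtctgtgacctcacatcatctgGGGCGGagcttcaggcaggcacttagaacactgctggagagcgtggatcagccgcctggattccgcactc
Ebp: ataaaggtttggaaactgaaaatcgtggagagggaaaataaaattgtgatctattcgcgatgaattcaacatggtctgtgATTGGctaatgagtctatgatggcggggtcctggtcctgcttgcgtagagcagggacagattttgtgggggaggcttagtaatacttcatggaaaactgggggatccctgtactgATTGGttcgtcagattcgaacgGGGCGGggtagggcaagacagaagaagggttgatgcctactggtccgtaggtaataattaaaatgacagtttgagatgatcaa
Lss: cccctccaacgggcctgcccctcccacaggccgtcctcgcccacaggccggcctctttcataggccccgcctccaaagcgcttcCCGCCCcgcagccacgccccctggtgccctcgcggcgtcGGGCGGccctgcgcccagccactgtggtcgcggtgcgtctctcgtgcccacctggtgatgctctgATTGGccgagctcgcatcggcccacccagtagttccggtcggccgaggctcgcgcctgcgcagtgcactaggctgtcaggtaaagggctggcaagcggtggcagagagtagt
Cyp51: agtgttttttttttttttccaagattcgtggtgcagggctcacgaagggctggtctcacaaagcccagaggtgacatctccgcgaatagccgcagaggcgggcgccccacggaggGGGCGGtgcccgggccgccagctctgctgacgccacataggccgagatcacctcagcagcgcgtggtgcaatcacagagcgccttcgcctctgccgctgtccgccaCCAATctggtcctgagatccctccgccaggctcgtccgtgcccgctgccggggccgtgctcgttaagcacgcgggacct
Sc5d: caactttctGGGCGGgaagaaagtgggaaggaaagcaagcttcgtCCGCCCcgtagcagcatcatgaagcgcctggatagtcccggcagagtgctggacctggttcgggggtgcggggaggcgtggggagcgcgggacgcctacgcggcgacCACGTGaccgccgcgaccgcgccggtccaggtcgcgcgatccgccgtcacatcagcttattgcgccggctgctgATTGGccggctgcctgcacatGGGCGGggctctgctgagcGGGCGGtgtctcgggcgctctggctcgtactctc
Insig1: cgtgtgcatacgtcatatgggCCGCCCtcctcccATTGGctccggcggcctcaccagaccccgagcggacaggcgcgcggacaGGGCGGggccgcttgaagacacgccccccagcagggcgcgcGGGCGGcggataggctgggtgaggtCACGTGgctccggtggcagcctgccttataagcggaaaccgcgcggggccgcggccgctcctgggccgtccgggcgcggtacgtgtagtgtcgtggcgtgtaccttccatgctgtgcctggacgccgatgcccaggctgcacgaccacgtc
Hmgcs1: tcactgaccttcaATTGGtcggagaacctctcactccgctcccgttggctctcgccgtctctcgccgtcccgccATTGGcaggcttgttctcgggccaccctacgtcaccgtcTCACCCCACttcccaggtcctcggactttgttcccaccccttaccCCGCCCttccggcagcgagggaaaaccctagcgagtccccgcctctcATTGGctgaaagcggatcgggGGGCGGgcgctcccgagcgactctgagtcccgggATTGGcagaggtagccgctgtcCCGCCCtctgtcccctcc
The windows lie on GRCm38.p6, Dhcr7 at chr7:143829964-143830263 on the plus strand, Ebp at chrX:8193463-8193762 on the minus strand, Lss at chr10:76531355-76531654 on the plus strand, Cyp51 at chr5:4104648-4104947 on the minus strand, Sc5d at chr9:42264251-42264550 on the minus strand, Insig1 at chr5:28071162-28071461 on the plus strand and Hmgcs1 at chr13:119690101-119690400 on the plus strand, each around the first base of the annotated gene.

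In the printed windows, Dhcr7 (the reductase of the last step to cholesterol) held CCAAT boxes whose first bases lie at -85 and -49 and a GC box at -20, counted with the annotated start as 1 and the base before it as -1. Ebp, a sterol isomerase, held CCAAT boxes at -170 and -55, and Lss, which closes squalene epoxide into lanosterol, held one at -62. Hmgcs1 held the core as TCACCCCAC at -137, with CCAAT boxes at -237, -176, -45 and 11. A CCAAT box lay in a window of 14 of 14 sterol enzymes (100%) and of 3 of 6 fatty acid enzymes (50%), against 41.1% of the 27025 genes in the table. GGGCGG lay in a window of 13 of 14 sterol enzymes (92.9%) and 2 of 6 fatty acid enzymes (33.3%), against 38.2% of all genes. CACGTG was found for 3 of 14 sterol enzymes (21.4%), and 1 of 6 fatty acid enzymes (16.7%), against 8.09% of all genes. The core was found for 1 of 14 sterol and 0 of 6 fatty acid enzymes, against 1.44%. In the same window both boxes occurred for 13 of 14 sterol enzymes and 1 of 6 fatty acid enzymes. The printed windows held no overlapping matches, and 1 overlap among the members, of a CCAAT box with another on the opposite strand, was in Fasn. Some genes have more than 1 window, and per window the CCAAT shares were 82.4% for sterol enzymes and 37.4% for all windows. The shares leave out Scd1, Scd2 and Fads1 of the fatty acid branch and Sqle, Fdps and Fdft1 of the sterol branch. Of these, Scd1, Scd2 and Fdps rose at 24 h against 4 h. A difference between the branches in these shares was not tested. A match is a run of letters and not a measured binding site, and the shares were not matched for base composition.

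**Figure D1:**
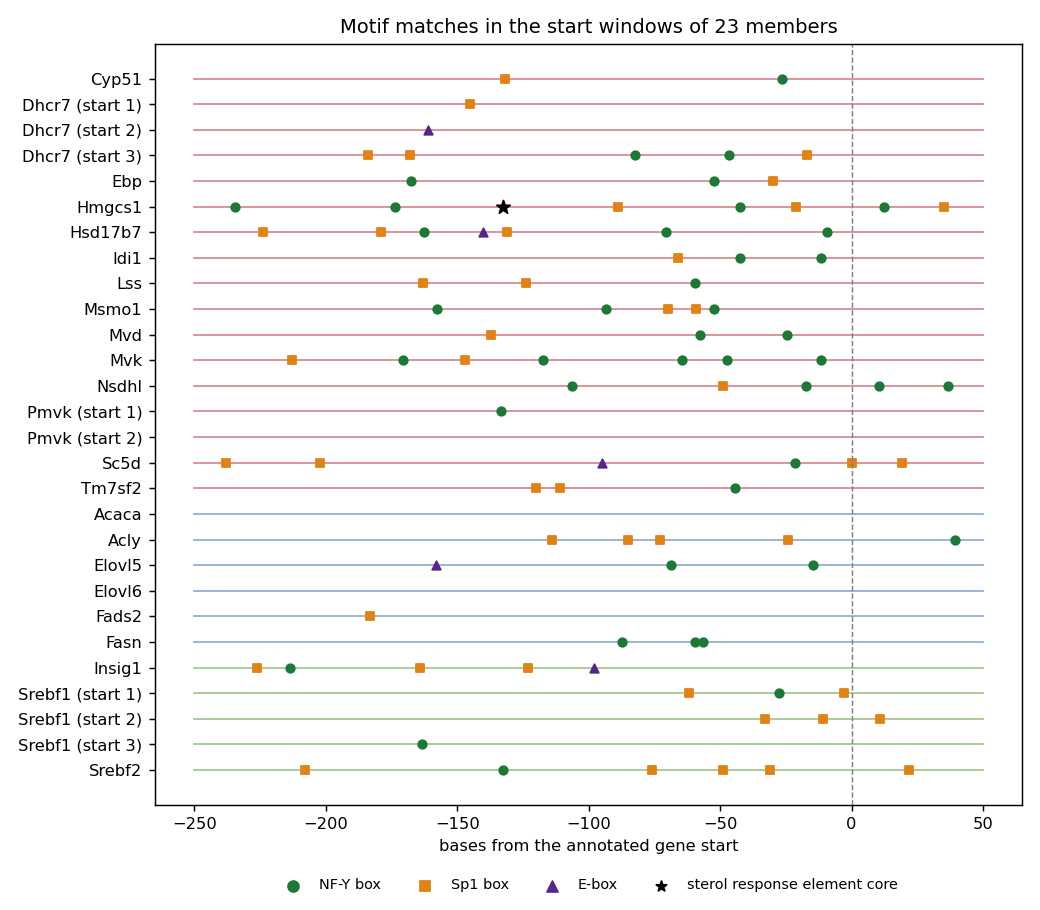
Motif matches in the 28 start windows of 23 genes, plotted by their distance in bases from the annotated start (x axis), 1 line per window, with red lines for sterol enzymes, blue for fatty acid enzymes and green for regulators. All 14 sterol enzymes plotted have a window with an NF-Y box, while the windows of Acaca and Elovl6 hold none of the 4 motifs and that of Fads2 holds 1 Sp1 box.

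Most members had their lowest mean at 4 h and their highest at 24 h. The mean was lowest at 4 h for 14 of 17 sterol enzymes, 5 of 9 fatty acid enzymes and 4 of 4 regulators, against 19.5% (A arrays) and 20.6% (B arrays) of all probe sets tested. Such shares of all probe sets are the background to each count and are marked A and B. It was highest at 24 h for 14 of 17 sterol enzymes, 6 of 9 fatty acid enzymes and 2 of 4 regulators, against 17.1% (A) and 19.6% (B). Both held for 17 of the 30 members, 11 of them sterol enzymes, against 5.55% (A) and 6.17% (B). The genes of a set were read on the same arrays, so these counts are not independent observations. In limma's F-test over the 5 times, 6 members had an adjusted p under 0.05, against a background of 7.59% (A) and 1.02% (B). These were Dhcr7 (adjusted p = 0.000211), Ebp (0.00372), Lss (0.0138), Sqle (0.0351), Cyp51 (0.038) and Scd2 (0.0384), all among the 25 members read on the A arrays. The count of 6 became 2 without A 4 h replicate 1 and 3 without A 4 h replicate 2, A 4 h replicate 3, A 24 h replicate 1 or A 48 h replicate 1.

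**Figure D2:**
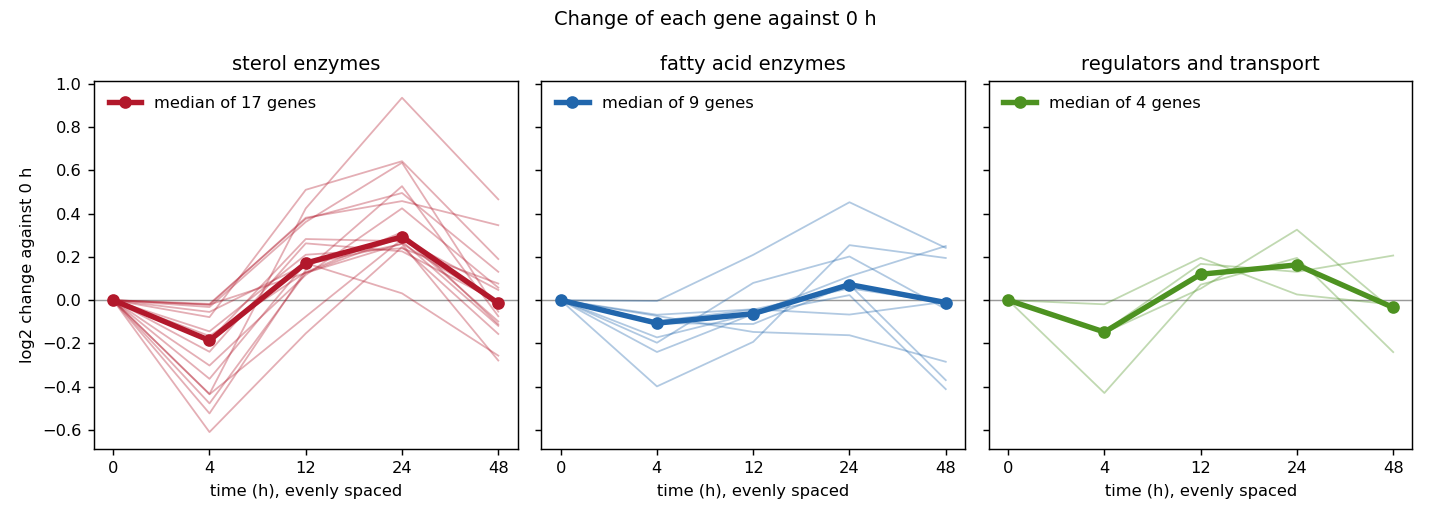
Log2 change of each gene against its 0 h mean (y axis) at 0, 4, 12, 24 and 48 h (x axis, evenly spaced), with thin lines for genes and a thick line for the median of 17 sterol enzymes, 9 fatty acid enzymes and 4 regulators or carriers. The sterol median was -0.19 at 4 h, 0.17 at 12 h, 0.29 at 24 h and -0.01 at 48 h. The fatty acid median was -0.11, -0.06, 0.07 and -0.01 at the same times.

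At 4 h against 0 h, all 30 members had a lower mean. The median log2 change was -0.19 over the sterol enzymes (from -0.61 to -0.02), -0.11 over the fatty acid enzymes and -0.15 over the regulators. The sterol median was -0.28 without A 0 h replicate 1 and -0.12 without A 0 h replicate 2. The fatty acid median was -0.21 without A 4 h replicate 2, -0.16 without A 4 h replicate 3 and -0.17 without B 4 h replicate 2. No change passed the threshold of an adjusted p of 0.05 in limma, against a background of 0.0295% (A) and 0% (B). An unadjusted p under 0.05 was found for 8 of 30, against 6.02% (A) and 5.17% (B). A positive change was found for 51.8% (A) and 50% (B) of all probe sets. The 3 values at 4 h lay below all 3 at 0 h for 10 of 30 members, 7 of them sterol enzymes, against 6.05% (A) and 5.03% (B). The largest of these differences were those of Mvk, mevalonate kinase (-0.61 ± 0.23), Lss (-0.52 ± 0.18) and Msmo1, a sterol methyl oxidase (-0.48 ± 0.20), given as log2 change ± SE with 3 arrays per time. Their adjusted p-values were 0.756, 0.744 and 0.781. The 6 macrophage and leukocyte markers on the A arrays summed to 443.8 to 608.8 at 4 h, against 601.2 to 867.5 at 0 h. Of these 3 were above the filter and none was past the threshold, with Cd68, Ptprc and Lyz2 below the filter. The log2 change at 4 h against 0 h was -0.63 ± 0.33 for Adgre1 (adjusted p = 0.868). For Csf1r it was -0.72 ± 0.32 (adjusted p = 0.806) on the brightest probe set and 0.39 ± 0.20 (adjusted p = 0.864) on another. Cd14, the remaining marker above the filter, went the other way, at 0.26 ± 0.19 (adjusted p = 0.924). The 5 endothelial markers, of which Kdr was above the filter, summed to 199.8 to 273.9 at 4 h, against 225.2 to 368.9 at 0 h. The part of these lists in the result was not tested.

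At 24 h against 4 h, the comparison with the most members past the threshold, 12 of 30 members rose and none fell. Of the 25 members of type A 11 passed, and of the 5 of type B 1 did. The background was 4.45% (A) and 0.459% (B) in either direction and 2.38% (A) and 0.281% (B) upwards. The change was positive for 29 of 30 members, against 47.3% (A) and 49.6% (B). Its median over the members was 0.46, against -0.02 over all probe sets of type A. The 3 values at 24 h lay above all 3 at 4 h for 22 members, against 12.3% (A) and 7.43% (B). Since these genes were already known to be low at 4 h and high at 24 h in these arrays, the contrast of those times describes the pattern and gives it no independent support. The count of 12 became 6 without A 4 h replicate 2 and 7 without A 4 h replicate 1, A 4 h replicate 3 or A 24 h replicate 2. It was 7 after scaling each array to its median and 5 without an intensity trend in the variance. Of the 10 muscle markers 3 rose as well (Tnnt3, Actn2 and Myh8). The changes of the 10 were positive for 7 and negative for 3, namely Des (-0.02), Myod1 (-0.11) and Chrna1 (-0.14), while Myog and Acta1 were at 0.05 and 0.04. The muscle marker sum was 52512 to 71483.9 at 24 h, against 40770.7 to 64820.2 at 4 h. The 5 Schwann cell and myelin markers summed to 2092 to 3032 at 24 h, against 2062.1 to 2595 at 4 h. Mag and S100b were below the filter and none was past the threshold. Pmp22, the brightest of the 5, was at a log2 change of 0.09 ± 0.18 (adjusted p = 0.862) and Sox10 at 0.05 ± 0.22 (adjusted p = 0.944). Mbp went the other way on its brightest probe set, at -0.50 ± 0.23 (adjusted p = 0.247), with all 24 h arrays below all 4 h arrays. The 6 fibroblast markers summed to 398.3 to 639.6 at 24 h, against 278.8 to 439.3 at 4 h, and of them only Col1a2 was above the filter on the A arrays, with a log2 change of -0.02 ± 0.26 (adjusted p = 0.979). Col1a1, below the filter and so not tested, had 102.1 to 209.9 at 24 h, against 42.0 to 69.7 at 4 h. The macrophage and leukocyte sum was 508.3 to 633.1 at 24 h, against 443.8 to 608.8 at 4 h. The part of these lists in the result was not tested.

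**Figure D3:**
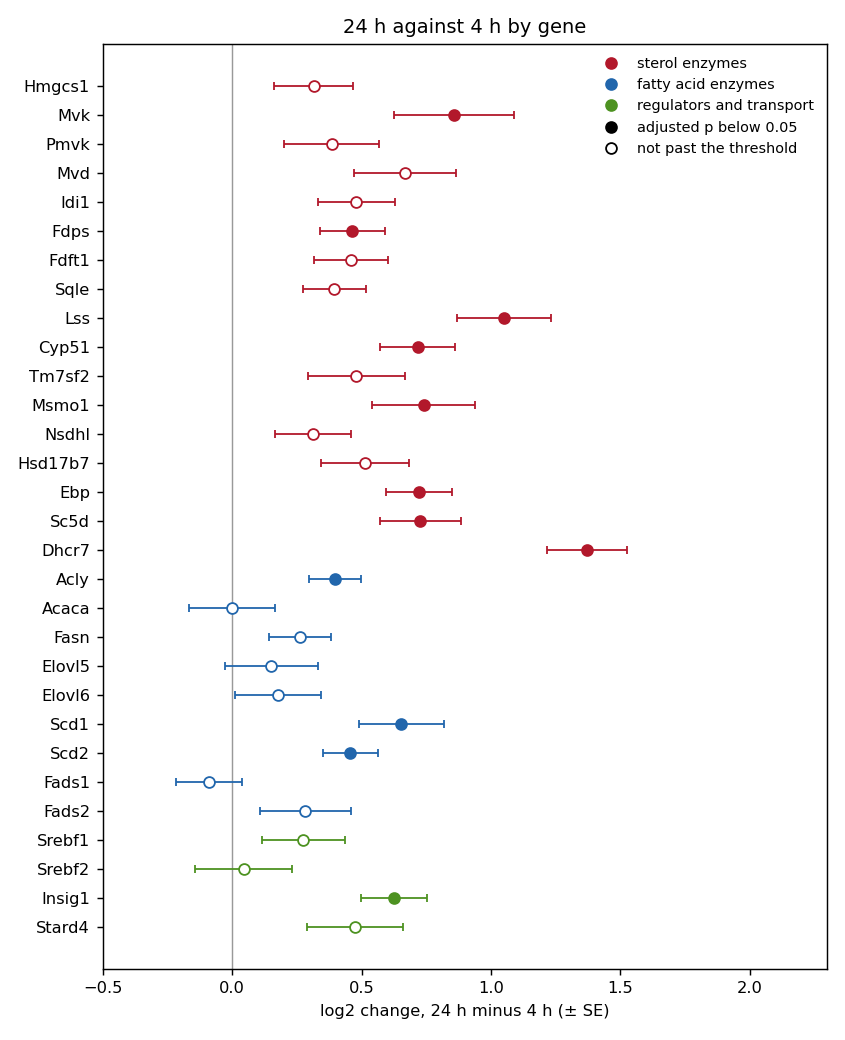
Log2 change at 24 h against 4 h (x axis) with its standard error for each of the 30 genes, in red for sterol enzymes, blue for fatty acid enzymes and green for regulators, with filled points for an adjusted p under 0.05. Dhcr7 has the largest change at 1.37, every sterol enzyme lies above 0.31, and Acaca, Fads1 and Srebf2 lie within 0.10 of 0.

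In the sterol branch, 8 of 17 enzymes rose at 24 h against 4 h, all 17 changes were positive (0.31 to 1.37, median 0.51) and 15 of 17 had no overlap between the times. The last stretch of the pathway, from lanosterol to cholesterol, held 5 of its 8 enzymes past the threshold with a median of 0.72. From mevalonate synthesis to farnesyl diphosphate 2 of 6 passed (median 0.47), and from squalene to lanosterol 1 of 3 (median 0.46). These stretches were drawn after the values were seen, and no test between them was made.

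Dhcr7, the 7-dehydrocholesterol reductase, had intensities of 759.8, 666 and 530.0 at 0 h, 549, 434 and 446 at 4 h, 792, 873 and 956 at 12 h, 1144, 1382 and 1233 at 24 h, and 811, 1057 and 843 at 48 h. All 24 h arrays were above every array of the other times, and the 12 h arrays were above all 0 h and 4 h arrays. Its log2 change was 1.37 ± 0.15 (a 2.58-fold rise; adjusted p = 0.000101) at 24 h against 4 h, 0.94 ± 0.15 (adjusted p = 0.00171) at 24 h against 0 h and 0.86 ± 0.15 (adjusted p = 0.0283) at 12 h against 4 h. Comparisons that share a time share its arrays. Ebp, which moves the double bond of the sterol ring earlier in the pathway, had 909.7, 1134 and 1190.5 at 0 h, 916, 1046 and 1086 at 4 h, 1606, 1624 and 1379.5 at 12 h, 1728, 1716 and 1602 at 24 h, and 1212, 1342 and 1128 at 48 h. The 12 h and 24 h arrays were all above those of 0, 4 and 48 h, and the 0 h and 4 h arrays overlapped. Ebp rose by a log2 of 0.72 ± 0.13 (adjusted p = 0.00333) at 24 h against 4 h and by 0.64 ± 0.13 (adjusted p = 0.00649) at 24 h against 0 h. Sc5d, the desaturase that makes 7-dehydrocholesterol, had 895, 1017 and 1004 at 0 h, 787, 788 and 776 at 4 h, 877, 963 and 1381 at 12 h, 1159.6, 1250.5 and 1543 at 24 h, and 993, 1111 and 936 at 48 h. The 4 h arrays were close together and below every other array, and the 24 h arrays overlapped those of 12 h because of the 12 h value of 1381. The log2 change at 24 h against 4 h was 0.73 ± 0.16 (adjusted p = 0.0121).

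Cyp51, the demethylase that takes the first step after lanosterol, had 2244, 1968 and 1712 at 0 h, 1441, 1375 and 1529 at 4 h, 1696, 1929 and 1970.3 at 12 h, 2309.8, 2109 and 2801 at 24 h, and 1976, 2444 and 1729 at 48 h. As for Sc5d, every 4 h array was below every array of the other times, and Cyp51 rose by 0.72 ± 0.14 (adjusted p = 0.00841) at 24 h against 4 h. Msmo1, which oxidises the methyl groups at carbon 4, had 2215, 2197 and 2882 at 0 h, 1668, 1478 and 2090.0 at 4 h, 3139.5, 2006 and 2897 at 12 h, 3065, 2736 and 2894 at 24 h, and 2106, 3312 and 1950.3 at 48 h. Its arrays at 4 h were below those at 0 h and 24 h, while 1 array at 12 h and 1 at 48 h were in the 4 h range. It rose by 0.74 ± 0.20 (adjusted p = 0.0436). The other enzymes of this stretch did not pass: the log2 change at 24 h against 4 h was 0.48 ± 0.19 for Tm7sf2, a sterol reductase (adjusted p = 0.172), 0.31 ± 0.15 for Nsdhl, a sterol dehydrogenase (adjusted p = 0.26), and 0.51 ± 0.17 for Hsd17b7, a keto-sterol reductase read on the B arrays (adjusted p = 0.26).

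Lss had 742, 694 and 930.1 at 0 h, 502, 554 and 565 at 4 h, 798, 721 and 1118 at 12 h, 1148, 1114 and 1142 at 24 h, and 856, 865 and 552 at 48 h. The 4 h arrays were below all 0 h arrays, the 24 h arrays were close together, and the third 48 h array was back in the 4 h range. Lss rose by 1.05 ± 0.18 (2.07-fold, adjusted p = 0.00273) at 24 h against 4 h. Sqle, the epoxidase that precedes it and a rate-limiting step of the branch, had 2473, 2946 and 2705 at 0 h, 2158, 2100.3 and 2028 at 4 h, 2762, 2988 and 3415 at 12 h, 2744, 2472 and 3101 at 24 h, and 2443, 2336 and 2016 at 48 h. Its mean was highest at 12 h, its 4 h arrays were below all those of 0, 12 and 24 h, and its 4 h and 48 h arrays overlapped. Sqle passed the F-test but not the contrast of 24 h against 4 h (0.40 ± 0.12, adjusted p = 0.0764), and Fdft1, squalene synthase, was at 0.46 ± 0.14 (adjusted p = 0.0851).

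Among the enzymes up to farnesyl diphosphate, Mvk had 375, 477 and 549.5 at 0 h, 299, 346 and 253 at 4 h, 453, 306 and 508 at 12 h, 543, 573 and 536 at 24 h, and 491, 532 and 267 at 48 h. The 4 h arrays were below all arrays of 0 h and 24 h, the 24 h arrays were closely spaced, and the third 48 h array was in the 4 h range. Mvk rose by 0.86 ± 0.23 (adjusted p = 0.0439) at 24 h against 4 h. Fdps, farnesyl diphosphate synthase, had 5401, 7297 and 5768 at 0 h, 5541, 4742 and 5255 at 4 h, 7437, 6699 and 7890.4 at 12 h, 7766, 7101 and 6599 at 24 h, and 6826, 6040.1 and 5426 at 48 h. Here the 0 h arrays overlapped both other times, and the 24 h arrays were all above the 4 h ones (0.46 ± 0.12, adjusted p = 0.0434). Mvd, the decarboxylase of the branch, was at 0.67 ± 0.20 (adjusted p = 0.0679), Idi1, an isomerase, at 0.48 ± 0.15 (adjusted p = 0.0806), Pmvk, a kinase, at 0.38 ± 0.18 (adjusted p = 0.273) and Hmgcs1, which makes HMG-CoA, at 0.31 ± 0.15 (adjusted p = 0.276). None of these 4 passed.

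**Figure D4:**
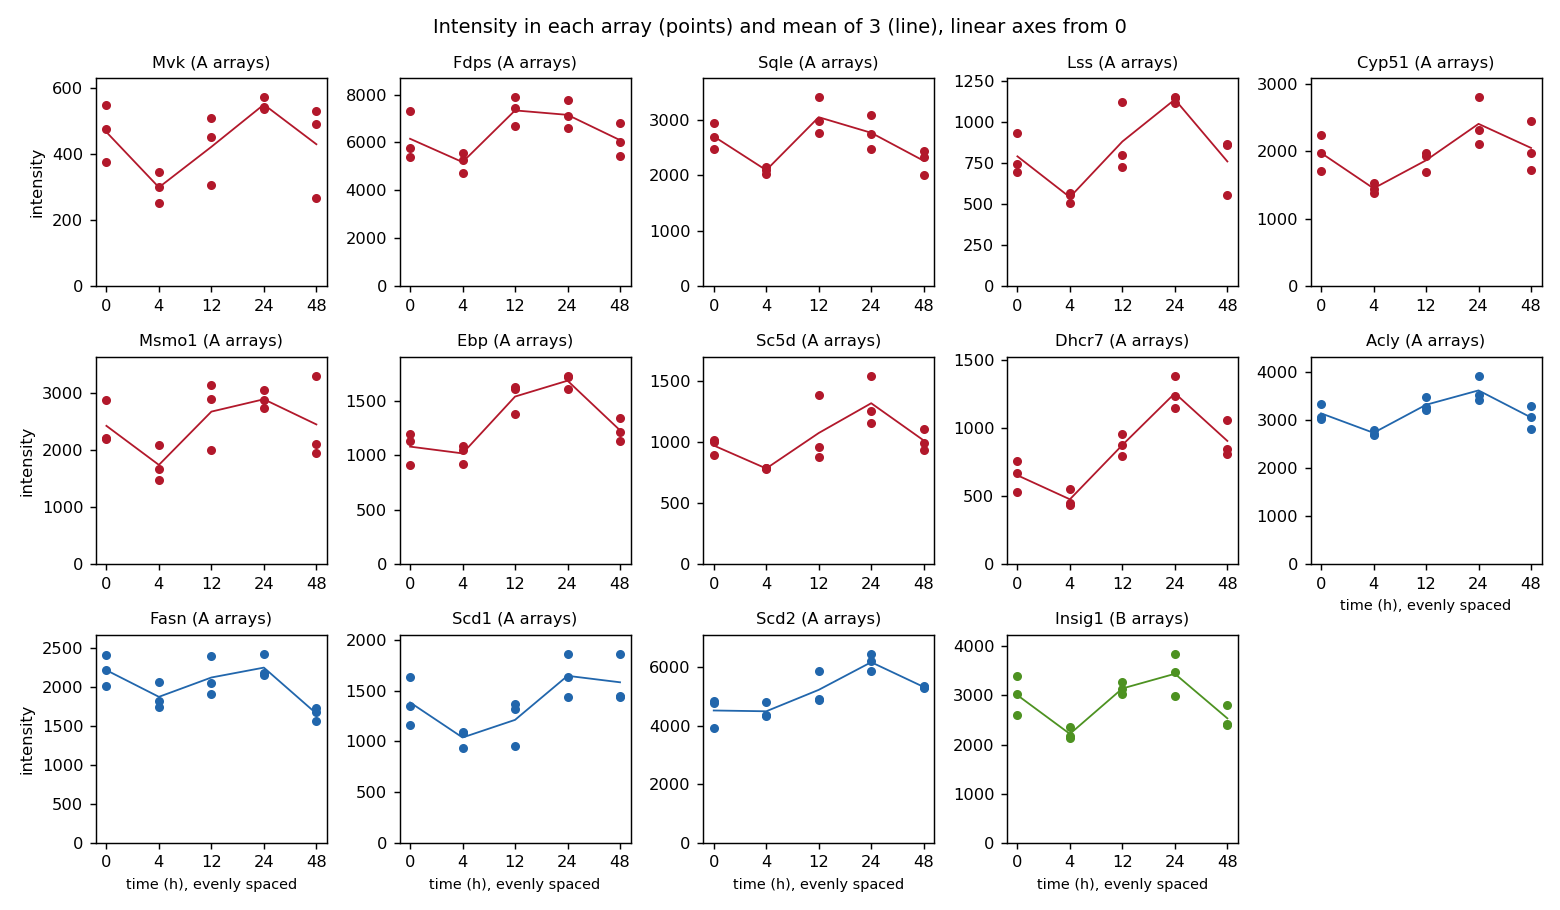
Intensity (y axis, linear from 0) in each of the 3 arrays (points) and their mean (line) at 0, 4, 12, 24 and 48 h (x axis, evenly spaced) for the 14 members past a threshold in any comparison, in red for sterol enzymes, blue for fatty acid enzymes and green for Insig1. For Cyp51, Sc5d, Acly and Insig1 the 3 arrays of 4 h lie below all others.

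In the fatty acid branch, 3 of 9 enzymes rose at 24 h against 4 h, namely Scd2, Scd1 and Acly. Here 8 of 9 changes were positive, the median was 0.26, and 5 enzymes had all 24 h arrays above the 4 h arrays while Fads1 had all of them below (backgrounds 12.3% and 7.43% above, and 13.5% (A) and 7.6% (B) below). Scd2, a stearoyl-CoA desaturase that makes monounsaturated fatty acids, had 4857, 3939 and 4779 at 0 h, 4802, 4356 and 4336 at 4 h, 4918, 4898 and 5878 at 12 h, 6456, 5867 and 6210.0 at 24 h, and 5365, 5292 and 5335 at 48 h. All 24 h arrays were above those of 0, 4 and 48 h, and no dip was seen at 4 h, where the values overlapped those of 0 h. Scd2 rose by 0.46 ± 0.11 (adjusted p = 0.0201) at 24 h against 4 h and by 0.45 ± 0.11 (adjusted p = 0.018) at 24 h against 0 h. Scd1, its paralogue, had 1354, 1638 and 1162 at 0 h, 1082, 1093 and 939 at 4 h, 952, 1366 and 1319 at 12 h, 1442, 1639 and 1859 at 24 h, and 1447, 1862 and 1440.3 at 48 h. Its arrays of 48 h overlapped those of 24 h, and both were all above the 4 h arrays. Scd1 rose by 0.65 ± 0.16 (adjusted p = 0.032) at 24 h against 4 h. Acly, which supplies cytosolic acetyl-CoA to both branches, had 3344, 3028 and 3062 at 0 h, 2724, 2801 and 2692 at 4 h, 3274, 3207 and 3489 at 12 h, 3517, 3421 and 3929 at 24 h, and 3072, 3289 and 2816 at 48 h, so that the 4 h arrays were below every other array. Acly rose by 0.40 ± 0.10 (adjusted p = 0.0309).

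The enzymes between Acly and the desaturases did not pass at 24 h against 4 h. Acaca, acetyl-CoA carboxylase and the committed step of the branch, had 2241, 2379 and 2942 at 0 h, 2220.1, 3246 and 1888 at 4 h, 2305, 2386 and 2611 at 12 h, 2269, 2544 and 2363 at 24 h, and 2385, 2490.4 and 2601 at 48 h on the B arrays. Its log2 change was 0.00 ± 0.17 (adjusted p = 0.999), the second 4 h array being the highest of all 15 and the third the lowest. Fasn, fatty acid synthase, had 2004, 2216 and 2408 at 0 h, 1735, 2059.8 and 1810.0 at 4 h, 1911, 2042 and 2395 at 12 h, 2142, 2169.6 and 2416 at 24 h, and 1560.0, 1727 and 1675 at 48 h. Its log2 change at 24 h against 4 h was 0.26 ± 0.12 (adjusted p = 0.245), and it was the member that fell at 48 h against 0 h, by 0.41 ± 0.12 on the log2 scale (adjusted p = 0.0463), with all 48 h arrays below every other array. That call was kept in 3 of 15 runs that each left out 1 A array. The elongases Elovl5 and Elovl6 were at 0.15 ± 0.18 (adjusted p = 0.729) and 0.18 ± 0.17 (adjusted p = 0.64), and the polyunsaturated fatty acid desaturases Fads1 and Fads2 at -0.09 ± 0.13 (adjusted p = 0.894) and 0.28 ± 0.18 (adjusted p = 0.427).

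The regulators themselves gave 1 call. Insig1, which holds the SREBP escort in the endoplasmic reticulum and is itself a sterol-regulated gene, had 3394, 2600.4 and 3021 at 0 h, 2351, 2175 and 2123 at 4 h, 3029.8, 3274 and 3122 at 12 h, 2994, 3843 and 3486 at 24 h, and 2799, 2389 and 2412 at 48 h on the B arrays. All 4 h arrays were below every other array. Insig1 rose by 0.62 ± 0.13 (adjusted p = 0.0454) at 24 h against 4 h, a call kept in 4 of 15 runs that each left out 1 B array. Srebf1, which encodes SREBP-1, was at 0.28 ± 0.16 (adjusted p = 0.386), and Stard4, a cholesterol carrier, was at 0.48 ± 0.19 (adjusted p = 0.353). Srebf2, which encodes SREBP-2, had 1139, 1203 and 1020.1 at 0 h, 1260.4, 1034 and 1030.1 at 4 h, 1085, 1787 and 1088 at 12 h, 1238, 1012 and 1180.4 at 24 h, and 1342, 872 and 1142 at 48 h. The Srebf2 arrays of all times overlapped, and its log2 change at 24 h against 4 h was 0.05 ± 0.19 (adjusted p = 0.938).

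At 24 h against 0 h, 3 members rose (Dhcr7, Ebp and Scd2) and none fell. The background was 5.56% (A) and 0.97% (B) in either direction and 3.23% (A) and 0.696% (B) upwards. The change was positive for all 17 sterol enzymes (median 0.29) and for 7 of 9 fatty acid enzymes (median 0.07), against 48.2% (A) and 48.5% (B). The sign of the fatty acid median rested on 1 array: it was -0.03 without A 24 h replicate 3, 0.13 without A 24 h replicate 2, and 0.11 without A 24 h replicate 1 or A 0 h replicate 2. At 12 h against 4 h, Dhcr7 was the 1 member that rose, against a background of 0.0884% (A) and 0.0074% (B) upwards. Positive changes were found there for all 17 sterol enzymes (median 0.42) and 7 of 9 fatty acid enzymes (median 0.11), against 51.2% (A) and 50.9% (B). At 12 h against 0 h no member passed in limma, against 0.368% (A) and 0.074% (B), and 3 members had an unadjusted p under 0.05, against 12.8% (A) and 8.12% (B). Without A 12 h replicate 3, 1 member passed. The median change at 12 h against 0 h was 0.17 over the sterol enzymes and -0.06 over the fatty acid enzymes, against 0.00 over all probe sets of either type. When 1 array was left out, the sterol median ranged from 0.09 to 0.30. The fatty acid median ranged from -0.15 to 0.005, the upper end being without A 12 h replicate 1. At 24 h against 12 h none passed, against 0.0884% (A) and 0% (B), and 5 had an unadjusted p under 0.05, against 7.09% (A) and 4.19% (B).

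At 48 h against 24 h, 56% (A) and 49.4% (B) of all probe sets had a positive change. Among the members 27 of 30 changes were negative, with all 17 of the sterol enzymes (median -0.39) and 7 of 9 fatty acid enzymes (median -0.12). None passed the threshold in limma, against 0.626% (A) and 0.0666% (B). An unadjusted p under 0.05 was found for 15 members, against 11.4% (A) and 6% (B). All 48 h arrays were below all 24 h arrays for 15 members, 10 of them sterol enzymes and 4 of them fatty acid enzymes, against 7.85% (A) and 5.36% (B). The largest differences were those of Mvd (-0.69 ± 0.20, adjusted p = 0.145) and Lss (-0.60 ± 0.18, adjusted p = 0.171). Hmgcs1 had 5993, 5083 and 5395 at 0 h, 6073, 4539.6 and 5319.7 at 4 h, 6061, 5066 and 7548 at 12 h, 5599.8, 6448 and 7827 at 24 h, and 4884, 4429 and 4243 at 48 h, with all 48 h arrays below those of 24 h and a log2 change of -0.54 ± 0.15 (adjusted p = 0.131). At 48 h against 0 h the sterol median was -0.01, with 7 positive and 10 negative changes and none past the threshold in limma. A positive change was found for 52.5% (A) and 47.7% (B) of all probe sets. The 1 call among the members was the fall of Fasn, against a background of 6.7% (A) and 0.933% (B) in either direction and 2.5% (A) and 0.2% (B) downwards. That sterol median was -0.18 without A 48 h replicate 2 and 0.13 without A 48 h replicate 3.

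The level of each branch was also followed array by array on the A arrays. It was the mean log2 deviation of 16 sterol and of 7 fatty acid enzymes from their 15-array means. Left out were the enzymes represented on the B arrays, Hsd17b7 of the sterol and Acaca and Fads1 of the fatty acid branch. Their log2 changes at 24 h against 4 h were 0.51, 0.00 and -0.09. The sterol level was -0.12, 0.02 and -0.10 at 0 h, -0.31, -0.36 and -0.29 at 4 h, 0.07, 0.03 and 0.30 at 12 h, 0.26, 0.32 and 0.37 at 24 h, and -0.03, 0.15 and -0.30 at 48 h. The 4 h and 24 h arrays were far apart from each other relative to the spread within a time (pooled SD 0.13), and the third 48 h array was as low as those of 4 h. The fatty acid level was 0.00, 0.05 and -0.01 at 0 h, -0.24, -0.08 and -0.17 at 4 h, -0.19, -0.04 and 0.19 at 12 h, 0.13, 0.08 and 0.32 at 24 h, and -0.05, 0.02 and 0.00 at 48 h, with a pooled SD of 0.11. The sterol level minus the fatty acid level of the same array was negative in all 6 arrays of 0 h and 4 h (-0.28 to -0.02) and positive in all 6 of 12 h and 24 h (0.04 to 0.26), and at 48 h it was 0.02, 0.12 and -0.31. Each gene was centred on its own 15-array mean, so a difference of 0 does not mark equal levels of the branches. Such centred differences must take both signs over the 15 arrays. The level of all 13577 probe sets tested stayed between -0.04 and 0.04. These levels are a description, with no test, since both branches were chosen with earlier results of these arrays known.

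**Figure D5:**
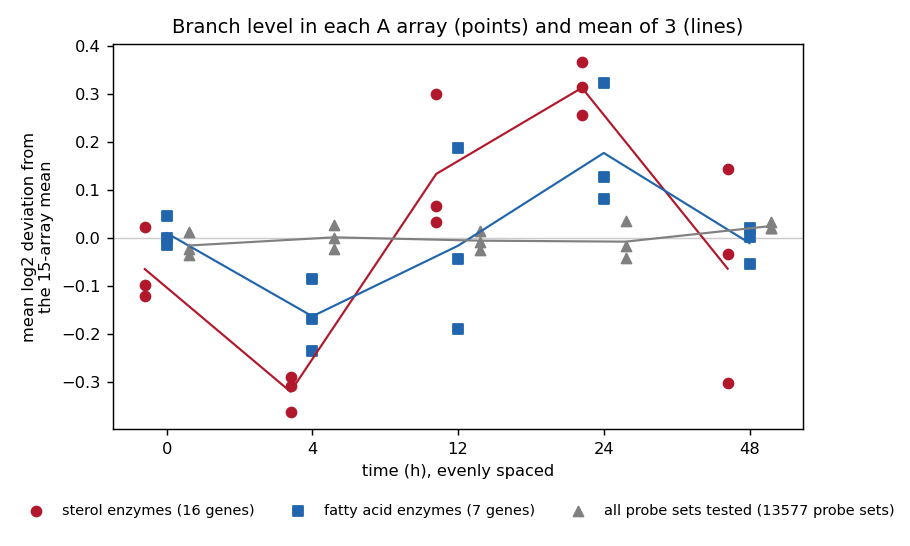
Mean log2 deviation from the 15-array mean (y axis) in each A array (points) and over 3 arrays (lines) at 0, 4, 12, 24 and 48 h (x axis, evenly spaced), for 16 sterol enzymes, 7 fatty acid enzymes and all 13577 probe sets tested. The sterol arrays run from below -0.28 at 4 h to above 0.25 at 24 h and spread widely at 48 h, from -0.30 to 0.15.

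The other probe sets of the same genes gave a second reading that the choice of the brightest one left out, although they come from the same arrays or RNA source. Of 30 further tested probe sets, 24 had the sign of the representative at 24 h against 4 h and 6 passed the threshold. Among the 15 of sterol enzymes, 13 were positive and 5 passed, at 1.05 for Mvk, 0.99 for Mvd, 0.72 for Lss, 0.60 for Fdft1 and 0.50 for Cyp51 (log2 change). All 4 probe sets of Hsd17b7 were between 0.37 and 0.56, and those of Elovl6 disagreed, from -0.89 to 0.47. Msmo1 had a second, dim probe set on the B arrays at -0.22 ± 0.32, and Acly had 3 of 4 positive.

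Among 36 neighbouring genes of these pathways that are not members, 23 were tested, of which 4 rose at 24 h against 0 h, 3 at 48 h against 0 h and 2 at 24 h against 4 h, and none fell in these comparisons. The background upwards at 48 h against 0 h was 4.2% (A) and 0.733% (B). Aacs, which activates acetoacetate for lipid synthesis, rose by 0.75 ± 0.19 (adjusted p = 0.0257) at 24 h against 0 h and by 0.93 ± 0.19 (adjusted p = 0.0084) at 24 h against 4 h. Its intensities were 579, 667 and 681 at 0 h, 544, 654 and 503 at 4 h, 792, 864 and 994 at 12 h, 1202, 942 and 1136 at 24 h, and 855, 1265 and 669 at 48 h, with all 24 h arrays above all 0 h and 4 h arrays. Dgat2 is the last enzyme of triglyceride synthesis, Mid1ip1 a partner of acetyl-CoA carboxylase and Fads3 a homologue of the fatty acid desaturases. At 24 h against 0 h they rose by 0.86 ± 0.19 (Dgat2, adjusted p = 0.0138), 0.58 ± 0.14 (Mid1ip1, adjusted p = 0.0235) and 0.89 ± 0.18 (Fads3, adjusted p = 0.029). At 48 h against 0 h Dgat2 rose by 1.08 ± 0.19 (adjusted p = 0.00218), Mid1ip1 by 0.83 ± 0.14 (adjusted p = 0.00145) and Fads3, on the B arrays, by 0.96 ± 0.18 (adjusted p = 0.0148). Dgat2 had 239.7, 325 and 226 at 0 h, 219, 239 and 263 at 4 h, 298, 279.5 and 212 at 12 h, 492, 639 and 364 at 24 h, and 539.6, 546 and 621 at 48 h, so that the 24 h and 48 h arrays were all above those of the earlier times. The median change over the 23 genes was -0.05 at 4 h against 0 h and 0.09 at 24 h against 4 h.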

How the data were processed

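Total RNA of cultured mouse extraocular muscle was measured on 15 A and 15 B Affymetrix arrays. Each file column holds 1 linear intensity per probe set as deposited, from a standard Affymetrix protocol per the labels. The software is not given in the sources used here. Column means after trimming 2% at each end were equal within a type (500.2 and 500.1), a scaling that precedes deposit. The number of arrays limits the precision.

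The log2 of intensity plus 16 was computed from the deposited values. Probe sets below the 40th percentile of mean intensity (101 on the A, 199.6 on the B arrays) and 64 controls per type were left out, leaving 13577 and 13507. For each type, limma 3.58.1 (R 4.3.3; eBayes with an intensity trend) fitted the 5 time means across all probe sets, with Benjamini-Hochberg adjustment within each comparison and a threshold of 0.05. It was run on simulated data with independent noise for each probe set, and the share of changes recovered is not given here. Changes of dim probe sets are understated. Symbols come from the platform annotation table. Per-array values are given for members past a threshold in any comparison, with Hmgcs1, Acaca and Srebf2 added after their values were seen. Members and lists were chosen with earlier results of these data known. No pairing by replicate number was evident on average: same-number deviations on the A arrays correlated at a mean of 0.0052, from -0.36 to 0.42. Of 30 such pairs 10 were above 0.1, so a pairing of some arrays is not excluded. Alternatives were other scalings, pseudocounts, filters, variance models, probe set choices, a replicate block and leaving out each array.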

Additional observations from a re-analysis of the deposited data

How the results depend on the processing

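In 442 recomputed values of the 17 single-gene calls, none changed direction and 346 stayed past the threshold. The calls of Dhcr7 and Ebp at 24 h against 0 h and 4 h, and of Lss, Cyp51 and Sc5d at 24 h against 4 h, were past it under all 11 alternatives and in all 15 runs without 1 array. Members past the threshold at 24 h against 4 h, 12 in the report, numbered 7 with median scaling and 5 without an intensity trend, and those in the F-test, 6 in the report, numbered 3 without that trend. The 1 member at 48 h against 0 h became 0 without a filter, without the trend and with only the arrays of both times, and the 1 at 12 h against 4 h became 0 with only those arrays. The fatty acid median at 48 h against 0 h was 0.20 with the A-array probe set first (-0.01 in the report). With the replicate block, 9 members were past the threshold at 24 h against 4 h, 4 at 24 h against 0 h and 6 in the F-test, which is not read as a weaker effect because the numbers mark no known pairing. Leaving out 1 array at a time gave 2 to 7 members in the F-test, 0 to 1 at 12 h against 0 h, 2 to 3 at 24 h against 0 h, 0 to 1 at 48 h against 0 h, 0 to 2 at 12 h against 4 h and 6 to 14 at 24 h against 4 h. The member at 12 h against 4 h was lost without any single A array of 4 h or without A 12 h replicate 1 or 2. The sterol median ranged from -0.18 to 0.13 at 48 h against 0 h and from 0.48 to 0.67 at 24 h against 4 h. The fatty acid median at 48 h against 0 h ranged from -0.06 to -0.01. Of the calls at 24 h against 4 h, that of Mvk was kept in 6 of 11 alternatives and 6 of 15 runs, Fdps in 7 and 9, Msmo1 in 7 and 8, Acly in 8 and 9, Scd1 in 10 and 10, Scd2 in 9 and 12 and Insig1 in 6 and 4. All probe sets past the threshold at 24 h against 4 h numbered 455 to 625 on the A arrays (604 in the report's model) and 9 to 68 on the B arrays (62) over the alternatives. Median scaling put the median of all A probe sets at 48 h against 0 h at -0.08 (0.02 without it). The sterol median there was then -0.12, the fatty acid median -0.12 and Fasn -0.52. The median SE at 24 h against 4 h was 0.27 on the B and 0.18 on the A arrays.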
